A study of Rattus norvegicus with 6 samples.

Results

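The genes described here make cholesterol and fatty acids or control that synthesis through the sterol regulatory element binding proteins (SREBPs). They were chosen by name from the deposited table of gene counts. Of 31 names listed, 30 had a row among the 33566 genes of the table, and all 30 had enough counts to be tested. The expression of Lbr, a sterol reductase of the nuclear envelope, was not analysed here. The libraries came from primary rat brain microvascular endothelial cells (rBMECs), the cells that line brain capillaries and form the blood–brain barrier. They were isolated with a kit from SD rats 18 to 22 days old, from the cortex by the labels and the forebrain by the methods, and used after a single passage. 3 libraries came from cells given homocysteine (Hcy) for 24 h and 3 from cells given its solvent, ddH2O, as vehicle (Veh). The labels of the Hcy libraries give a dose of 100 µM, whereas the protocol also names an Hcy solution of 50 µM. The comparison asks how this pathway differed between Hcy and Veh cells. Both groups are cultured cells outside the vessel wall. The labels call the libraries biological replicates without saying which animals or flasks they came from, so a p-value measures the spread between these 3 libraries of each group.

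Cholesterol is built from acetyl-CoA, first through mevalonate to farnesyl diphosphate, then through squalene to lanosterol, and from lanosterol by a series of demethylations, reductions and isomerizations. The same farnesyl diphosphate also feeds protein prenylation, dolichol and coenzyme Q. When sterols in the endoplasmic reticulum are low, SCAP escorts SREBP to the Golgi, where it is cut and freed to enter the nucleus. When sterols are high, INSIG proteins hold SCAP back. SREBP-2, encoded by Srebf2, acts mainly on cholesterol genes, and SREBP-1, encoded by Srebf1, acts more on fatty acid genes. The blood–brain barrier keeps most plasma lipoprotein out of the brain, and brain cholesterol is made largely within the brain.

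Libraries held 14024997 to 16764584 counts on genes, and a level of 3 counts corresponded to 0.179 to 0.214 CPM (counts over the library total), a limit that covers counting error only. The CPM values below were also scaled by edgeR's TMM factors. The endothelial gene Cdh5 lay at 1844 to 2039 CPM in Hcy and 1535 to 1974 CPM in Veh. Vwf lay at 2858 to 3003 CPM in Hcy and 1976 to 2533 CPM in Veh, while Cldn5, a tight junction gene of brain endothelium, had 0 counts in every library. The paper reports Claudin-5 protein by Western blot in rBMECs. The 0 describes the Cldn5 row alone, and why it held no counts was not tested. The 11 endothelial markers with a row summed to 9987 to 10423 CPM in the Hcy libraries and 8431 to 9916 CPM in the Veh libraries, a ratio of 1.10. Of the 10 that were tested, 7 had a log2 fold change above 0 and 3 below, with a median of 0.13, beside 46.9% of all genes above 0. By edgeR 0 passed on the adjusted p, beside 1.32% of all genes higher and 1.01% lower. An unadjusted p of at most 0.05 was reached by 3 higher and 2 lower, beside 7.44% and 5.95% of all genes. Without Veh replicate 3, described below, 4 of the 10 passed, 2 higher and 2 lower, beside 3.48% of all genes higher and 3.18% lower. The 6 brain endothelial markers with a row went the other way in sum, at 817 to 896 CPM in Hcy and 912 to 963 CPM in Veh, a ratio of 0.904. Slc2a1, at 497 ± 34.2 CPM in Hcy and 621 ± 14.2 CPM in Veh (SD, n = 3), carried the fall in this sum. Of the 6, 2 had all Hcy libraries above the Veh libraries and 2 below, beside 10.8% and 9.27% of all genes. Those below were Slc2a1 (log2 fold change -0.32) and Mfsd2a (-0.44), and neither passed the test. Those above were Slc7a5 (0.40), which passed it with an edgeR adjusted p of 0.0297, and Lef1 (0.09), which did not. Without Veh replicate 3, 1 of the 6 passed as higher and 1 as lower, beside the same shares of all genes, 3.48% and 3.18%. Markers of astrocytes, microglia and leukocytes and epithelium each summed to less than 2 CPM in every library, and Ptprc was at 0. The 4 neuron markers summed to 6.85 to 9.77 CPM in Hcy and 5.22 to 7.18 CPM in Veh, a ratio of 1.36. Among them, Rbfox3 and Snap25 were at 0. Syt1 (log2 fold change 0.85) had all Hcy libraries above the Veh libraries, and Tubb3 (0.32) had overlapping groups. Neither passed the test, with edgeR adjusted p of 0.195 and 0.574. The 10 pericyte and smooth muscle markers summed to 674 to 700 CPM in the Hcy libraries and 1104 to 1330 CPM in the Veh libraries. Tagln and Acta2, which passed the test and were lower in Hcy, carried the difference in this sum. Of the 10 markers 6 had a log2 fold change above 0, among them Pdgfrb (0.73), Rgs5 (1.26) and Cspg4 (1.66), with 19 to 54, 1 to 9 and 3 to 16 counts a library, and none of these 3 passed the test. The 5 fibroblast markers with a row summed to 44.9 to 68.7 CPM in Hcy and 63.5 to 91.2 CPM in Veh, a ratio of 0.774. Of the 4 that were tested, 3 had a log2 fold change above 0 and 1 below, beside 46.9% of all genes above 0. The 1 below, Col1a1 (-0.52), had all Hcy libraries below the Veh libraries without passing the test. Fewer cells of a type and less RNA per cell cannot be told apart in such libraries. The part of the endothelial, brain endothelial, neuron, pericyte and smooth muscle, and fibroblast markers in the results below was not tested. Veh replicate 3 stood apart on the second principal component, which held 26.2% of the variance, at 30.4 against -16.0 and -19.0 for the other Veh libraries. Its deviations followed gene length, with a Spearman rho of -0.42 across 12296 genes against -0.14 to 0.25 in the other libraries. The main counts below are therefore also given without it.

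Most of the pathway lay slightly higher in Hcy cells, by amounts far smaller than the 2-fold threshold of the study. Of the 30 genes, 24 had a log2 fold change (Hcy relative to Veh) above 0 and 6 below 0, that is 80.0% above 0 against 46.9% of all 14603 genes tested. The median log2 fold change of the 30 was 0.13, against -0.02 over all genes tested. Without Veh replicate 3, 23 lay above 0 and 7 below, beside 49.4% of all genes above 0, and the median was 0.16. The summed level of the 30 genes was 2097, 2065 and 2139 CPM in Hcy replicates 1, 2 and 3, and 1924, 1861 and 1809 CPM in Veh replicates 1, 2 and 3. The lowest Hcy library thus lay above the highest Veh library, and the ratio of the means was 1.13.

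Groups were compared by the quasi-likelihood test of edgeR, with p-values adjusted by the Benjamini-Hochberg method over all genes tested. Both thresholds, an adjusted p no higher than 0.05 and a log2 fold change of 1 or more in either direction, were met by 0 of the 30 genes and by 0.486% of all genes. DESeq2 likewise gave 0. On the adjusted p alone, 1 gene passed, Tm7sf2, and it was higher in Hcy. Over all genes, 1.32% passed as higher and 1.01% as lower. With DESeq2, 3 genes passed on the adjusted p, Tm7sf2, Hmgcs1 and Cyp51, all higher in Hcy, beside 2.35% of all genes higher and 1.79% lower. At an unadjusted p of at most 0.05 there were 11 genes, all higher in Hcy, that is 36.7% of the 30 against 7.44% of all genes higher and 5.95% lower. Without Elovl6 and Scd, which had few counts, there were 10 of 28, or 35.7%. The 11 genes were Tm7sf2, Hmgcs1, Cyp51, Nsdhl, Sqle, Elovl6, Srebf2, Fasn, Idi1, Msmo1 and Fdps. In 12 of the 30 genes every Hcy library lay above every Veh library, and in 0 every Hcy library lay below. That is 40.0%, against 10.8% of all genes above and 9.27% below. Without Veh replicate 3, 14 genes reached this p. Of these 13 were higher, and Lss was lower, beside 10.9% of all genes higher and 10.2% lower. Without that library 4 genes passed on the adjusted p, Cyp51, Fdps, Hmgcs1 and Tm7sf2, beside 3.48% of all genes higher and 3.18% lower. Every Hcy library then lay above the remaining Veh libraries in 15 genes and below them in 1, beside 19.5% of all genes above and 18.9% below. Without Hcy replicate 2 or Veh replicate 2 the genes at an unadjusted p of at most 0.05 numbered 7, and without Hcy replicate 3 they numbered 5, all of them higher. Over all genes, the share at that p was then 5.95% higher and 4.82% lower, 6.36% higher and 5.5% lower, and 5.46% higher and 4.56% lower.

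**Figure D1:**
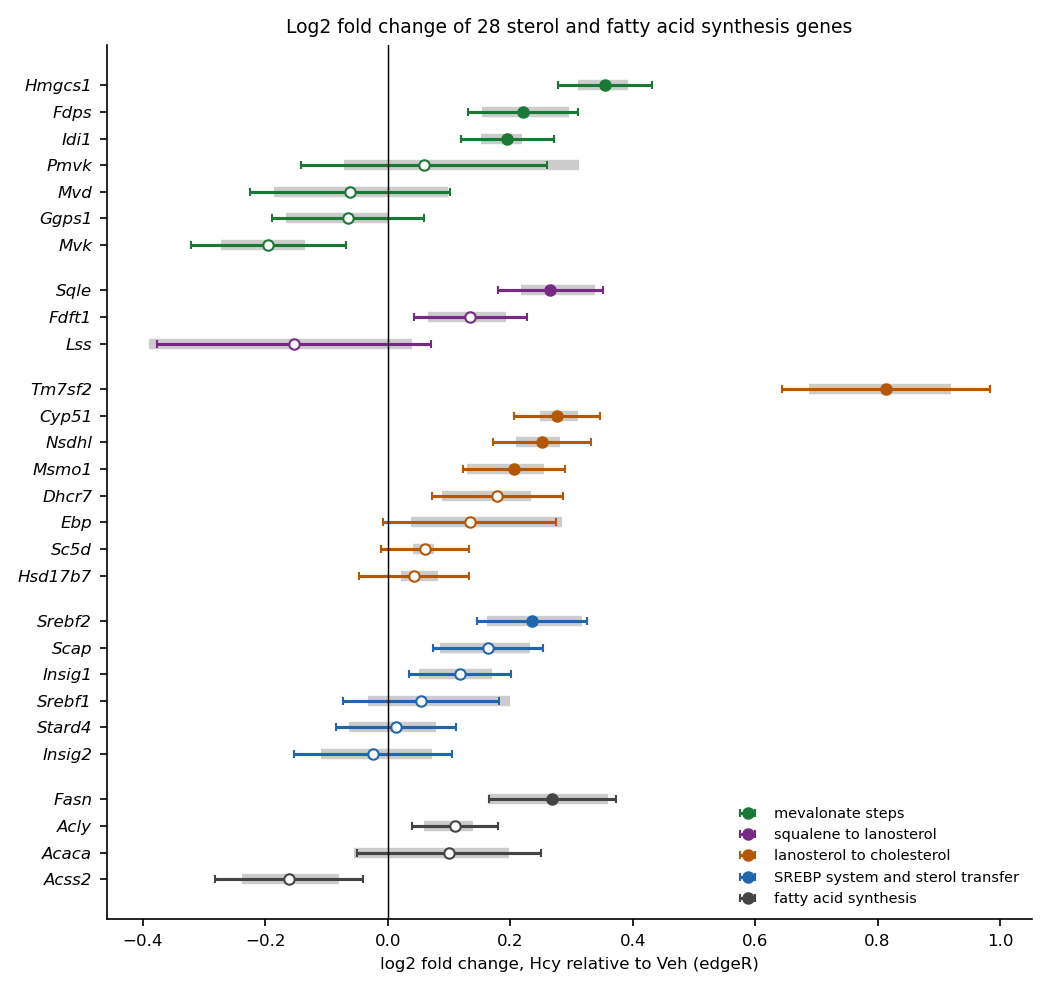
Log2 fold change of Hcy relative to Veh by edgeR for 28 genes, in 5 colours by role. Horizontal bars give the SE, grey bands the range when each library is left out in turn, and filled points an unadjusted p of at most 0.05. Scd and Elovl6, which had few counts, are not drawn. 22 of the 28 points lie right of 0, and Tm7sf2 lies farthest right at 0.81.

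Sequences before the start sites are shown for 4 genes: Tm7sf2, which passed the test, Hmgcs1 and Cyp51, which had the next smallest p, and Srebf2, which encodes the regulator of the pathway. The RefSeq promoter table (build GRCr8) held 24 of the 31 listed names, Lbr included, with 25 start sites because Srebf1 had 2. The 250 bases before each start were searched on both strands. The classical sterol regulatory element and its looser form TCACNCCAC were found in 0 of 25, against 0.105% and 0.974% of all 33469 promoters, and 0.0% and 0.968% of the 11156 promoters of tested genes. CCAAT, the letters bound by NF-Y, stood in 21 of 25 (84.0%), against 34.0% of all promoters and 34.9% of those of tested genes. GGGCGG, the letters bound by Sp1, stood in 20 of 25 (80.0%), against 30.5% of all promoters and 57.3% of those of tested genes. The E-box CACGTG stood in 3 of 25 (12%), those of Insig1, Sc5d and Scap, against 5.59% of all promoters and 7.75% of those of tested genes. A match describes letters and not binding, and the absence of a form says only that those letters are not in this window. NF-Y and Sp1 are known partners of SREBP on promoters of this pathway. In the sequences, read 5′ to 3′ along the gene, capitals mark CCAAT and GGGCGG or their reverse complements. The Tm7sf2 stretch is chr1:212789542-212789791 on the minus strand. The others are on the plus strand, Hmgcs1 at chr2:53382054-53382303, Cyp51 at chr4:30991443-30991692 and Srebf2 at chr7:115543057-115543306.
Tm7sf2: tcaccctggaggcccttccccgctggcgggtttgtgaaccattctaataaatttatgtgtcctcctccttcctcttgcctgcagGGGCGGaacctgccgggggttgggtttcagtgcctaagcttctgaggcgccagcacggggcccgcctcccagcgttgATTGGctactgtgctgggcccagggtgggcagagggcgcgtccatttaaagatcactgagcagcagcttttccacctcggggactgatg
Hmgcs1: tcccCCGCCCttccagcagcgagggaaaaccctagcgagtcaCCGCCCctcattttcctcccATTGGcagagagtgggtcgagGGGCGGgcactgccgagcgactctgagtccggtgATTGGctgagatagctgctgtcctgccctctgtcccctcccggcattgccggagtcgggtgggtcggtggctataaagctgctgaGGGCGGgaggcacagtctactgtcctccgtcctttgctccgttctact
Cyp51: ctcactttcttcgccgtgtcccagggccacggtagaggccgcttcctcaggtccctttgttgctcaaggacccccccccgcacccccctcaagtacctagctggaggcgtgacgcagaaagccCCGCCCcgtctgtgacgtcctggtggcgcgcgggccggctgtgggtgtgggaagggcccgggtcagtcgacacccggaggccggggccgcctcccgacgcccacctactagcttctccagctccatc
Srebf2: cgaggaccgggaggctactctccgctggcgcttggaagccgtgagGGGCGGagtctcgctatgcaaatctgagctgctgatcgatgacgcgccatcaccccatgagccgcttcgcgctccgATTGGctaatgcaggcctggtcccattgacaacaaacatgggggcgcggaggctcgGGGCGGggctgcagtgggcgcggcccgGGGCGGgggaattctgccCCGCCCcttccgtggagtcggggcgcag
The Hmgcs1 stretch held 2 CCAAT and 4 GGGCGG matches, with the CCAAT matches beginning 188 and 133 bases before the start. The Srebf2 stretch held 1 CCAAT match, 129 bases before the start, and 4 GGGCGG matches. Tm7sf2 held 1 of each, the CCAAT match 89 bases before the start. Cyp51 held no CCAAT and 1 GGGCGG match.

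Compared per gene length, as RPKM (CPM over the deposited gene length in kilobases), the genes differed widely in level. Acly, which makes cytosolic acetyl-CoA from citrate, was highest in Veh cells at 84.2 ± 5.2 RPKM (SD, n = 3). It was followed by Fdps at 62.7 ± 6.10, Insig1 at 53.5 ± 2.92, Msmo1 at 49.5 ± 1.30, Cyp51 at 36.7 ± 1.17, Hmgcs1 at 28.4 ± 1.33 and Fdft1 at 22.0 ± 1.91 RPKM. Among neighbours in this order, only the Veh libraries of Insig1 and Msmo1 overlapped. Tm7sf2 and Lss were the lowest of the genes that were well counted, at 2.63 ± 0.435 and 2.58 ± 0.832 RPKM, and did not differ from each other beyond their spread. Scd and Elovl6 lay far below all others, at mean RPKM of 0.05 and 0.04 in Veh cells. Srebf2, at 17.2 ± 1.84 RPKM, lay above Srebf1 at 5.09 ± 0.840 in Veh cells, and at 20.2 ± 0.661 against 5.29 ± 0.246 in Hcy cells.

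**Figure D2:**
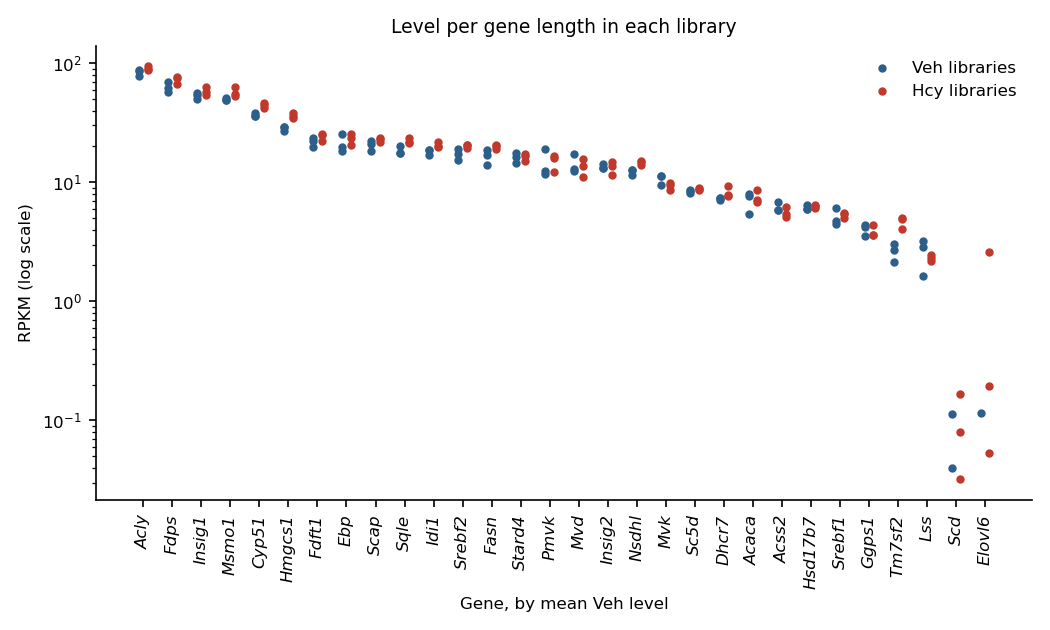
RPKM on a log scale in each library for the 30 genes, ordered by mean level in Veh. Blue points are the 3 Veh and red points the 3 Hcy libraries, and libraries at 0 (Veh replicate 3 for Scd, Veh replicates 1 and 3 for Elovl6) cannot be drawn on this axis. Levels run from Acly near 84.2 RPKM in Veh down to Lss at 2.58, with Scd and Elovl6 far below.

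Of the 7 genes of the mevalonate steps, 4 had a log2 fold change above 0, and 5 without Veh replicate 3, beside 46.9% and 49.4% of all genes. An unadjusted p of at most 0.05 was reached by 3, all higher in Hcy, beside 7.44% of all genes, and after adjustment none passed. Their summed level was 466, 439 and 496 CPM in Hcy replicates 1 to 3 and 401, 383 and 433 CPM in Veh replicates 1 to 3, so the lowest Hcy library still exceeded the highest Veh library. Hmgcs1 encodes the cytosolic HMG-CoA synthase, which makes the HMG-CoA from which mevalonate is formed. It measured 111, 116 and 124 CPM in Hcy against 93.3, 94.5 and 86.5 CPM in Veh. The groups stood clear of each other, with a log2 fold change of 0.35 ± 0.08 (SE, n = 3 per group) and an edgeR adjusted p of 0.0513, just short of the threshold. DESeq2 gave it an adjusted p of 0.00478, and without Veh replicate 3 edgeR gave 0.0216. Leaving out any other library gave edgeR adjusted p of 0.126 to 0.248.

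Fdps, which makes farnesyl diphosphate, measured 227, 203 and 230 CPM in Hcy against 187, 172 and 208 CPM in Veh. Hcy replicate 2 lay below Veh replicate 3, so the groups overlapped, and the log2 fold change was 0.22 ± 0.09 with an edgeR adjusted p of 0.322. Without Veh replicate 3 it was 0.30 with an edgeR adjusted p of 0.0356. Idi1, the isopentenyl diphosphate isomerase, measured 56.0, 56.8 and 61.3 CPM in Hcy against 47.7, 52.4 and 52.1 CPM in Veh. The groups did not overlap, and the log2 fold change was 0.20 ± 0.08 with an edgeR adjusted p of 0.298. Its row shares 100 bases with Wdr37 on the other strand, and whether counting used strand is not given in the sources used here.

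The remaining mevalonate genes showed no such order. Mvk, mevalonate kinase, averaged 11.1 ± 0.855 CPM in Hcy and 12.7 ± 1.17 CPM in Veh (SD, n = 3), a log2 fold change of -0.20. The next kinase, Pmvk, averaged 16.3 ± 2.55 and 15.7 ± 4.42 CPM. The decarboxylase gene Mvd averaged 23.0 ± 3.92 CPM in Hcy and 24.0 ± 4.44 CPM in Veh. Ggps1, which makes geranylgeranyl diphosphate for prenylation, averaged 21.5 ± 2.48 and 22.5 ± 2.41 CPM. In each of these 4 genes the libraries of the groups overlapped, with edgeR adjusted p of 0.581 to 0.943.

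Between squalene and lanosterol lie 3 genes, of which 2 had a log2 fold change above 0. Sqle, squalene epoxidase, is held to be a second control point of the pathway after mevalonate. It measured 59.0, 58.6 and 64.6 CPM in Hcy against 55.4, 48.3 and 47.9 CPM in Veh. All Hcy libraries lay above all Veh libraries, with a log2 fold change of 0.27 ± 0.09 and an edgeR adjusted p of 0.191. Fdft1, squalene synthase, averaged 76.2 ± 5.49 CPM in Hcy and 69.4 ± 6.02 CPM in Veh, with overlapping libraries. Lss, which closes the sterol rings, measured 11.1, 10.4 and 9.91 CPM in Hcy against 12.9, 14.6 and 7.41 CPM in Veh, so Veh replicate 3 was the lowest and the other Veh libraries the highest of the 6. Its log2 fold change was -0.15 ± 0.22, and -0.39 without Veh replicate 3, with an edgeR adjusted p of 0.114.

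All 8 genes of the steps from lanosterol to cholesterol that could be analysed had a log2 fold change above 0, beside 46.9% of all genes, with a median of 0.19. In 6 of them the Hcy libraries lay wholly above the Veh libraries, beside 10.8% of all genes, and 4 reached an unadjusted p of at most 0.05 as higher, beside 7.44%. Their summed level was 425, 405 and 440 CPM in Hcy replicates 1 to 3 and 358, 357 and 377 CPM in Veh replicates 1 to 3. Tm7sf2 encodes a sterol C14 reductase, an activity that Lbr shares. Its row (deposited position chr1:221425987-221431713, minus strand, in a build that the table does not name) was counted 157, 136 and 186 times in the Hcy libraries and 104, 77 and 99 times in the Veh libraries. In CPM this was 11.3, 9.13 and 11.1 against 6.17, 4.91 and 6.85. The groups were well apart, with means of 10.5 ± 1.19 and 5.98 ± 0.988 CPM (SD, n = 3). The log2 fold change was 0.81 ± 0.17 (SE), a 1.76-fold higher level, with an edgeR adjusted p of 0.0460.

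This call was close to the threshold. The adjusted p of Tm7sf2 lay at or under 0.05 in 8 of 13 alternatives, ranging from 0.00453 with DESeq2 to 0.200. It was 0.0122 without Veh replicate 3, and 0.182, 0.0842, 0.200, 0.131 and 0.141 without Hcy replicate 1, 2 or 3 or Veh replicate 1 or 2, so each of these 5 libraries was needed for the call. The log2 fold change stayed between 0.69 and 0.92. The Tm7sf2 row shares 1066 bases with Vps51 on the same strand, and reads there cannot be assigned to either gene with certainty. Vps51 was counted 339, 350 and 372 times in Hcy and 426, 393 and 375 times in Veh, so it was not higher in the Hcy libraries.

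Cyp51, the lanosterol 14-demethylase and the first enzyme to act on lanosterol, measured 150, 142 and 154 CPM in Hcy against 121, 120 and 127 CPM in Veh. The groups did not overlap, with a log2 fold change of 0.28 ± 0.07 and an edgeR adjusted p of 0.0953. DESeq2 gave an adjusted p of 0.0269, and edgeR without Veh replicate 3 gave 0.0170. Nsdhl and Msmo1 act together to remove the methyl groups at C4 of the sterol. Nsdhl measured 43.8, 41.8 and 45.2 CPM in Hcy against 37.5, 38.0 and 34.4 CPM in Veh, a log2 fold change of 0.25 ± 0.08 with an edgeR adjusted p of 0.183. Msmo1 measured 98.2, 102 and 116 CPM in Hcy against 89.9, 90.5 and 94.3 CPM in Veh, a log2 fold change of 0.21 ± 0.08 with an edgeR adjusted p of 0.319. Neither gene had overlapping groups, although Hcy replicate 3 lay well above the other Hcy libraries for Msmo1.

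The remaining 4 genes had log2 fold changes of 0.04 to 0.18. Dhcr7, which makes cholesterol from 7-dehydrocholesterol, averaged 22.7 ± 2.42 CPM in Hcy and 20.0 ± 0.342 CPM in Veh. Sc5d, a sterol desaturase, averaged 42.9 ± 0.886 and 41.1 ± 1.07 CPM. For both, all Hcy libraries lay above all Veh libraries, by less than 1 CPM at the nearest pair. Ebp, the sterol isomerase, averaged 24.4 ± 2.54 and 22.3 ± 3.96 CPM, and Hsd17b7, a keto reductase, averaged 24.7 ± 0.715 and 24.0 ± 1.12 CPM, both with overlapping groups. These 4 genes had edgeR adjusted p of 0.540 to 0.901.

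**Figure D3:**
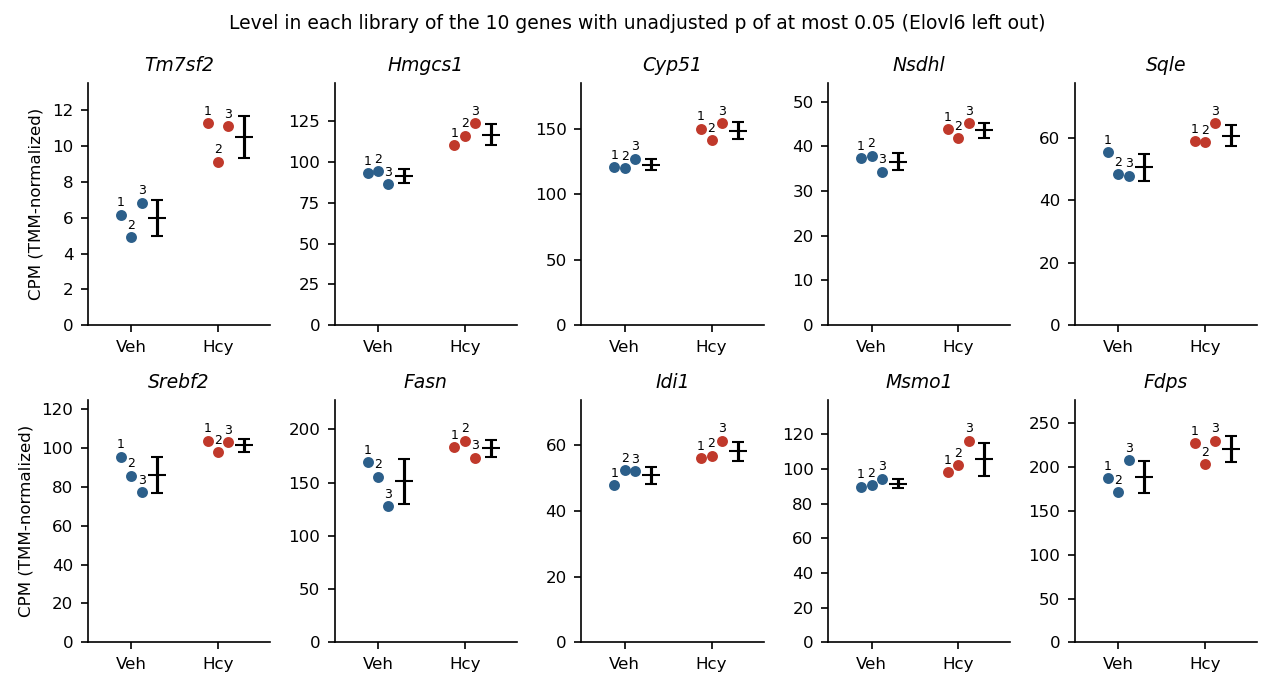
TMM-normalized CPM in each of the 3 Veh (blue) and 3 Hcy (red) libraries, numbered by replicate, for the 10 genes with an unadjusted p of at most 0.05 other than Elovl6, with the group mean and SD in black and every axis starting at 0. The groups stand apart in 9 panels and overlap in Fdps. The separation is widest, relative to level, in Tm7sf2.

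Of the genes that sense sterol and control SREBP, Srebf2 had the smallest p. It measured 104, 97.6 and 103 CPM in Hcy against 95.5, 85.8 and 77.0 CPM in Veh. All Hcy libraries lay above all Veh libraries, with the nearest pair, Hcy replicate 2 and Veh replicate 1, closer to each other than Hcy replicates 1 and 2. The log2 fold change was 0.24 ± 0.09 with an edgeR adjusted p of 0.285, and it was 0.16 without Veh replicate 3. Srebf1 measured 24.3, 22.2 and 23.9 CPM in Hcy against 26.8, 19.9 and 21.0 CPM in Veh. Veh replicate 1 was the highest of all 6 libraries, and the log2 fold change was 0.05 ± 0.13 with an edgeR adjusted p of 0.910. The Srebf1 row shares 588 bases with Rai1 on the other strand.

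Scap, the escort protein of SREBP, measured 99.6, 101 and 93.3 CPM in Hcy against 95.3, 89.2 and 77.7 CPM in Veh. The groups overlapped, and the log2 fold change was 0.16 ± 0.09 with an edgeR adjusted p of 0.50. Without Veh replicate 3 the log2 fold change of Scap was 0.086. Insig1, whose transcript is itself an SREBP target and whose protein retains SCAP, measured 138, 130 and 153 CPM in Hcy against 135, 132 and 121 CPM in Veh. Hcy replicate 2 lay below Veh replicates 1 and 2, and the log2 fold change was 0.12 ± 0.08 with an edgeR adjusted p of 0.622. For Insig1 it was 0.075 without Veh replicate 3. Insig2, the second INSIG gene, measured 14.8, 11.4 and 13.5 CPM in Hcy against 13.1, 14.2 and 13.2 CPM in Veh, with no order between the groups and a log2 fold change of -0.02 ± 0.13. Stard4, a sterol transfer protein, averaged 43.7 ± 3.08 CPM in Hcy and 43.3 ± 4.40 CPM in Veh.

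Among the 6 fatty acid genes, 5 had a log2 fold change above 0, and 4 without Veh replicate 3, beside 46.9% and 49.4% of all genes. Elovl6 and Scd, with few counts, were among the 5. Fasn, fatty acid synthase, measured 183, 189 and 173 CPM in Hcy against 169, 156 and 128 CPM in Veh. All Hcy libraries lay above all Veh libraries, and Veh replicate 3 was the lowest by far. The log2 fold change was 0.27 ± 0.10 with an edgeR adjusted p of 0.285, and it was 0.16 without Veh replicate 3. Acly averaged 393 ± 13.5 CPM in Hcy and 364 ± 22.5 CPM in Veh, also without overlap. The log2 fold change of Acly was 0.11, and 0.060 without Veh replicate 3. Acaca, the cytosolic acetyl-CoA carboxylase that makes malonyl-CoA, averaged 50.8 ± 6.44 and 47.3 ± 9.46 CPM. Its log2 fold change was 0.10, and -0.055 without Veh replicate 3. Acss2, which makes acetyl-CoA from acetate, averaged 15.9 ± 1.5 CPM in Hcy and 17.8 ± 1.67 CPM in Veh.

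Elovl6, an elongase of saturated fatty acids, and Scd, a stearoyl-CoA desaturase, were near the limit of detection. Elovl6 was counted 3, 43 and 1 times in Hcy and 0, 2 and 0 times in Veh. Its counts therefore came almost wholly from Hcy replicate 2, the groups overlapped, and no fold is given. Without that library it had fewer than 10 counts and was not tested. Its place among the 11 genes at an unadjusted p of at most 0.05 rests on that library. A separate row, LOC102549542, is described by the same Swiss-Prot protein match as Elovl6. That row was counted 4, 7 and 21 times in Hcy and 2, 8 and 2 times in Veh, and was not added to Elovl6. Scd was counted 2, 11 and 6 times in Hcy and 3, 8 and 0 times in Veh, with overlapping groups. Leaving both genes out, 22 of 28 genes had a log2 fold change above 0, and the median stayed at 0.13.

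**Figure D4:**
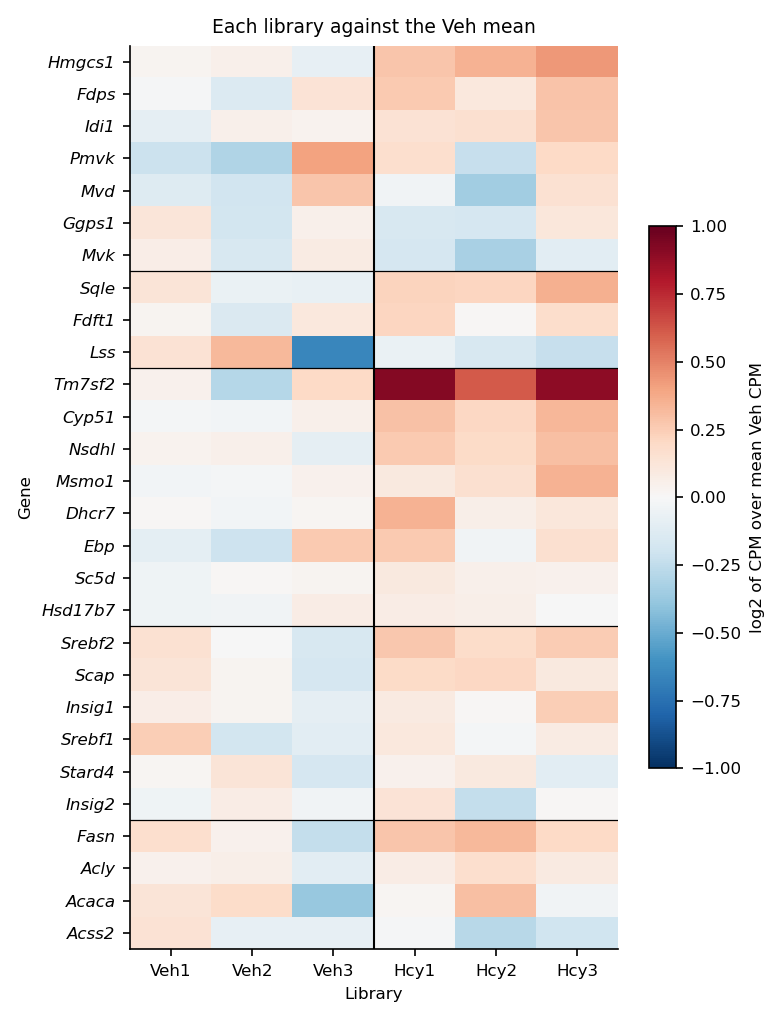
Log2 of the CPM in each library over the mean Veh CPM, for 28 genes in rows grouped by role and the 6 libraries in columns (red higher, blue lower). The Hcy columns are red for most genes from Sqle to Msmo1, strongest in Tm7sf2, and Veh replicate 3 departs from the other Veh libraries in both directions, blue in Lss, Acaca and Fasn and red in Pmvk and Mvd.

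The deviation of Veh replicate 3 ran across these genes as it did across the genome. The log2 difference of Veh replicate 3 from the mean of the other Veh libraries was set against deposited gene length. In 28 genes without Scd and Elovl6 the Spearman rho was -0.57, and across 12296 genes it was -0.46. Veh replicate 3 thus lay lower for long genes such as Acaca and Fasn and higher for short genes such as Pmvk. Across the same 28 genes the log2 fold change of Hcy relative to Veh had a rho of 0.10 with length. These are correlations across genes of the same libraries, and genes are not independent replicates.

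Of 94 further genes of the pathway in 6 lists, 90 were tested, and 51 had a log2 fold change above 0 and 39 below. Above 0 lay 56.7% of the 90, beside 46.9% of all genes, and their median was 0.03. Only Fads1 and Fads2 passed on the adjusted p, both higher in Hcy and both from the list of fatty acid activation, desaturation and elongation, beside the 1.32% of all genes passing as higher. At an unadjusted p of at most 0.05, 8 of the 90 were higher and 4 lower, that is 8.89% and 4.44%, near the 7.44% and 5.95% of all genes. Without Veh replicate 3, 49 lay above 0 and 41 below, with 8 higher and 7 lower at an unadjusted p of at most 0.05, beside 10.9% and 10.2% of all genes. In that fit 8 of the 90 passed on the adjusted p, beside 3.48% of all genes higher and 3.18% lower: Abca1, Gpam and Lpin2 lower, and Acat2, Fads1, Fads2, Scd2 and Tecr higher.

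Fads1 and Fads2 encode the delta-5 and delta-6 desaturases that make long polyunsaturated fatty acids, and both are known SREBP-1 targets. Fads1 measured 14.7, 15.1 and 15.5 CPM in Hcy against 8.73, 8.60 and 7.34 CPM in Veh. The libraries of each group lay close together and far from the other group, with a log2 fold change of 0.87 ± 0.12, a 1.83-fold higher level, and an edgeR adjusted p of 0.0102. Fads2 measured 19.2, 17.0 and 17.4 CPM in Hcy against 12, 9.75 and 7.68 CPM in Veh. These groups were also well apart, with a log2 fold change of 0.86 ± 0.16, a 1.82-fold higher level, and an edgeR adjusted p of 0.0303. Leaving out Hcy replicate 1, 2 or 3 raised the adjusted p of Fads1 to 0.0528, 0.0503 and 0.0651. For Fads2 it was 0.147, 0.0948 and 0.127 without Hcy replicate 1, 2 or 3, and 0.106 without Veh replicate 2. Scd2, a second stearoyl-CoA desaturase gene, measured 244, 236 and 250 CPM in Hcy against 196, 185 and 151 CPM in Veh, without overlap, a log2 fold change of 0.46 ± 0.10 with an edgeR adjusted p of 0.0513.

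**Figure D5:**
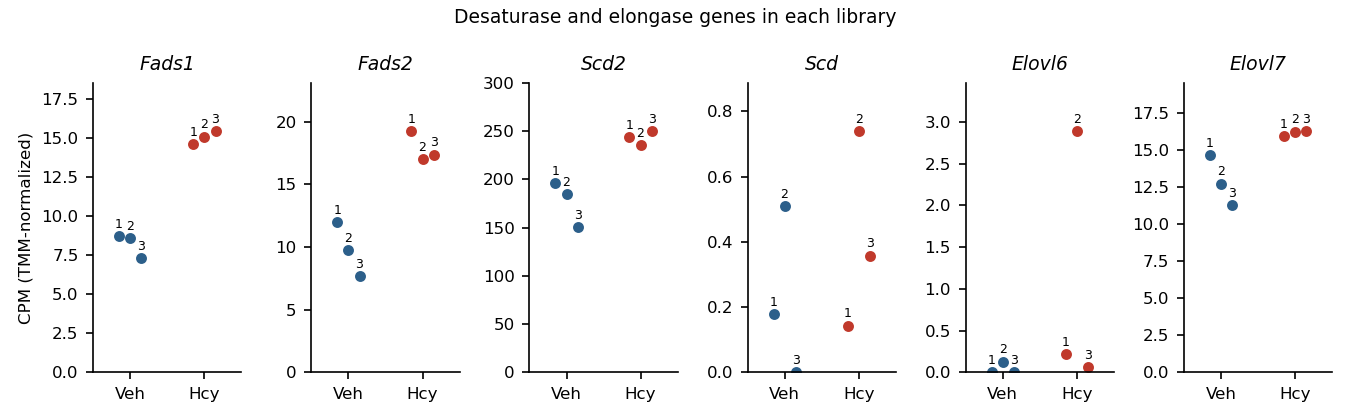
TMM-normalized CPM of 6 desaturase and elongase genes in each Veh (blue) and Hcy (red) library, numbered by replicate, each panel on its own axis from 0. Every Hcy point of Fads1, Fads2, Scd2 and Elovl7 lies above every Veh point, Scd lies under 1 CPM throughout, and Elovl6 exceeds 1 CPM in Hcy replicate 2 alone.

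No gene of the other 5 lists passed on the adjusted p. Among the 12 genes that process SREBP or degrade pathway proteins when sterols are high, 6 lay above and 6 below 0, and 2 and 10 without Veh replicate 3. The smallest p belonged to Aup1, at 73.2 ± 4.22 CPM in Hcy and 80.4 ± 10.4 CPM in Veh, and to Sec24d, a coat protein of the vesicles that carry SCAP, at 82.6 ± 1.22 and 77.5 ± 3.71 CPM. Among 19 genes of sterol export, transfer and storage, 13 lay above and 6 below 0. Gramd1b, a carrier of sterol from the plasma membrane, averaged 1.98 ± 0.229 CPM in Hcy and 1.02 ± 0.275 CPM in Veh, a log2 fold change of 0.95 ± 0.30. Abca1, the cholesterol exporter, averaged 69.5 ± 1.92 CPM in Hcy and 83.4 ± 9.02 CPM in Veh, a log2 fold change of -0.26 ± 0.09. Every Hcy library of Gramd1b lay above, and every Hcy library of Abca1 below, the Veh libraries, with edgeR adjusted p of 0.183 and 0.226.

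Among 13 glycerolipid genes, 8 lay above and 5 below 0. Lpin2, a phosphatidate phosphatase, averaged 19.2 ± 0.630 CPM in Hcy and 25.5 ± 2.04 CPM in Veh, a log2 fold change of -0.41 ± 0.10 with an edgeR adjusted p of 0.0834. Plin2, which coats lipid droplets, averaged 94.8 ± 5.07 and 112 ± 9.49 CPM, a log2 fold change of -0.24 ± 0.09. Both had all Hcy libraries below all Veh libraries. The 14 genes that use prenyl groups for dolichol, prenylation and coenzyme Q had 5 above and 9 below 0, with the smallest p in Fntb, a farnesyltransferase subunit, at 13.4 ± 0.855 and 15.5 ± 0.432 CPM, and in Nus1, a dolichol synthesis gene, at 149 ± 4.10 and 141 ± 6.29 CPM. Of 13 other sterol synthesis genes, 6 lay above and 7 below 0. Acat2, which condenses acetyl-CoA in the cytosol ahead of Hmgcs1, averaged 35.3 ± 2.55 CPM in Hcy and 29.9 ± 4.2 CPM in Veh, with an edgeR adjusted p of 0.421.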

How the data were processed

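The 6 RNA-seq libraries, 3 Hcy and 3 Veh as grouped by their labels, were made from poly(A) RNA of rBMECs. The authors deposited raw read counts per gene without normalization, with gene positions and lengths. The submitters' processing notes name fastp, HISAT2 2.2.1, StringTie 2.2.3, Cufflinks, featureCounts 2.0.6 and DESeq2 1.42.0, and the methods name mRatBN7.2, but the deposited table names no build. Its positions reach 282724300 on chromosome 1, past the end of that chromosome in mRatBN7.2, so printed deposited positions cannot be read as that build. Whether counting used strand is not given in the sources used here. A deposited table of the authors' own comparison (fold changes and p-values) was not used.

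The 14603 genes whose counts over all libraries came to 10 or more were analysed in R 4.3.3 (edgeR 4.0.16 with limma 3.58.1, DESeq2 1.42.0). They were normalized by TMM, fitted by edgeR with the group alone as predictor, and tested by quasi-likelihood, with Benjamini-Hochberg adjusted p. Thresholds were 0.05 for the adjusted p and 1 for the log2 fold change in either direction. The SE is the log2 fold change over the square root of the F statistic. Alternatives were DESeq2, its size factors, library totals, no count minimum, filterByExpr, a replicate block, a prior count of 2 and leaving out each library.

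Every gene of the pathway list was named, with values in each library for the 12 with the smallest p and for Srebf1, Srebf2, Scap, Insig1 and Insig2. From each further list the genes passing on the adjusted p and the 2 with the smallest p were named, where reported. Scd2, Vps51, LOC102549542, Pdgfrb, Rgs5, Cspg4, Col1a1, Slc2a1, Mfsd2a, Slc7a5, Lef1, Syt1 and Tubb3 were added after their values were seen. So were the genes named as passing without Veh replicate 3. The genes and lists were chosen with earlier results of these data known. Some genes of the pathway are not reported here. Of the marker lists, endothelial genes summed to 8431 to 10423 CPM per library, fibroblast 44.9 to 91.2, oligodendrocyte 10.6 to 12.4 and neuron 5.22 to 9.77.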

Additional observations from a re-analysis of the deposited data

How the results depend on the processing

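The count of pathway genes meeting both thresholds was 0 under every alternative except the replicate block, where it was 1, Elovl6, which rests on Hcy replicate 2. Genes passing on the adjusted p numbered 3 with DESeq2 (Tm7sf2, Hmgcs1 and Cyp51), 2 without a count minimum and 2 with filterByExpr (Tm7sf2 and Hmgcs1 in both) and 2 with the replicate block (Tm7sf2 and Elovl6), against 1 in the reported fit. With single libraries left out they numbered 0 to 4, with 4 without Veh replicate 3 and 0 in each other case. Genes at an unadjusted p of at most 0.05 numbered 5 to 14, and the median log2 fold change of the 30 genes lay between 0.12 and 0.17. The further pathway genes passing on the adjusted p numbered 0 to 8, with 0 without Hcy replicate 1, 2 or 3 and 1 without Veh replicate 2. Fewer libraries were fitted in these runs, and other causes were not tested. The sign of the log2 fold change turned in 7 of 42 named genes, each on leaving out a library: Stard4 (-0.063 to 0.079), Mvd (-0.19 to 0.098), Insig2 (-0.11 to 0.072), Acaca (-0.055 to 0.20), Pmvk (-0.071 to 0.31), Lss (-0.39 to 0.039) and Srebf1 (-0.032 to 0.20). A prior count of 2 turned no sign. Replicate numbers were not taken as pairs in the reported fit. Deviations of same-numbered libraries correlated at 0.0237, 0.166 and 0.0581 across genes, and those of differently numbered libraries at -0.184 to 0.129. With 3 libraries a group these values cannot settle whether the numbers mark pairs, and the replicate block above gives the paired fit. With 0 to 43 counts a library for Elovl6 and 0 to 11 for Scd, depth limits any statement on these 2 genes.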

Other observations

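The stearoyl-CoA desaturase and the acetyl-CoA carboxylase of the pathway each have a second gene, and in these cells a single gene of each pair carried most of the transcript. Per gene length, Scd2 stood at 48.2 ± 1.44 RPKM in Hcy and 35.1 ± 4.66 RPKM in Veh (SD, n = 3), while Scd stood at 0.09 and 0.05 RPKM. Acaca stood at 7.47 ± 0.947 RPKM in Hcy and 6.97 ± 1.39 RPKM in Veh, while Acacb, whose protein sits at the mitochondrial surface, stood at 0.418 ± 0.0575 and 0.300 ± 0.0454 RPKM. The low partner Acacb had all Hcy libraries above the Veh libraries. Its log2 fold change was 0.48 ± 0.22 (SE) with an edgeR adjusted p of 0.390, so it did not pass the test.

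Other genes at an unadjusted p of at most 0.05 lay in both directions. Me1, the malic enzyme that supplies NADPH for fatty acid synthesis, averaged 15.4 ± 1.03 CPM in Hcy and 18.7 ± 0.857 CPM in Veh, with all Hcy libraries below the Veh libraries and an edgeR adjusted p of 0.271. Elovl7 averaged 16.2 ± 0.192 CPM in Hcy and 12.9 ± 1.70 CPM in Veh, and Lpcat3, which places polyunsaturated chains into phospholipids, averaged 138 ± 4.54 and 122 ± 8.38 CPM. Both had all Hcy libraries above the Veh libraries, with edgeR adjusted p of 0.285 and 0.356. These genes were named after their values were seen.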
